A study of Mus musculus with 6 samples.

Results

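The mitochondrial ribosome is built from ribosomal RNAs encoded in mitochondrial DNA and from proteins encoded in the nucleus, made in the cytosol and imported. It translates the mitochondrial messenger RNAs, whose products are core subunits of the respiratory chain and of ATP synthase. The heart is rich in mitochondria, and inherited defects of several of these proteins are known to cause cardiomyopathy in infancy. Genes of the large subunit carry symbols beginning with Mrpl and genes of the small subunit symbols beginning with Mrps. The members described here are all genes with such a symbol followed by a digit that were measured on a transcript cluster assigned to 1 gene, with the brightest cluster taken where there were several. They are 77 of 19938 genes, 48 Mrpl and 29 Mrps.

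Total RNA from 6 hearts of C57BL/6J mice was measured on Affymetrix arrays that probe whole transcripts, with an array for each heart. The mice were at postnatal day 14, after 1 week of treatment either with vehicle (PBS, phosphate-buffered saline; replicates 3, 9 and 12) or with ETX (replicates 6, 7 and 10), an abbreviation that the labels do not spell out. The labels call the hearts biological replicates and give neither dose nor sex. All values are deposited log2 signals, in which a difference of 1 is a doubling, and with 3 arrays per group the number of arrays limits the precision.

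All 9 cardiomyocyte markers, among them Myh6, Tnnt2 and Actc1, were bright in every heart, with a mean log2 signal of 12.4 to 12.5 in PBS and 12.3 to 12.4 in ETX. Other tissue was present in some hearts. The 7 tested lung epithelium markers had a mean of 3.71 to 7.76 in PBS, high in replicates 3 and 9, and 3.74 to 3.83 in ETX. The 8 atrial markers ranged from 5.31 to 7.63 in PBS and 5.87 to 7.21 in ETX, and their mean was high in PBS replicate 3 and ETX replicates 6 and 7. Of the 8, Bmp10 was high only in PBS replicate 3 (7.71, and 2.55 to 2.94 in the other hearts), and Nppa was high in ETX replicate 10 as well (11.9, against 9.28 and 9.04 in PBS replicates 9 and 12). Across all 14953 genes tested, 3.56% passed a limma adjusted p of 0.05, 1.14% higher and 2.43% lower in ETX.

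The members lay slightly but broadly higher in ETX hearts. Of the 77 members, 68 had a log2 difference above 0, or 88.3%, against 48.4% of all genes tested. The median log2 difference was 0.12 for the 48 Mrpl genes (41 above 0) and 0.15 for the 29 Mrps genes (27 above 0), or 1.09-fold and 1.11-fold, against -0.0063 over all genes tested. The quartiles of the differences were 0.052 and 0.19 for Mrpl and 0.058 and 0.23 for Mrps. All 77 members were above the limit for dim genes, so none was left out.

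Few members changed by enough to pass the test singly. With limma over all genes, 1 Mrpl gene (Mrpl11) and 2 Mrps genes (Mrps18a and Mrps22) rose at an adjusted p of 0.05, 3.90% of the members against 1.14% of all genes, and 0 fell. At an unadjusted p under 0.05, 27 members were higher (35.1%, against 8.86% of all genes) and 0 lower (against 13.1%). The first count was 16 without PBS replicate 9, 17 without ETX replicate 10 and between 20 and 24 without any other single heart. It was 11 with the lung-marker score as a covariate. Over all genes tested, 3279 had such a p in either direction in the main fit. That number was 2941 without PBS replicate 9, 2930 without ETX replicate 10 and 2627 with the lung-marker score. In 33 members all 3 ETX hearts lay above all 3 PBS hearts (42.9%, against 11.6% of all genes), and in 2 members, Mrpl17 and Mrps6, all ETX hearts lay below (against 16.1%). By subunit, 20 of 48 Mrpl and 13 of 29 Mrps genes were without overlap and higher. Members share their hearts and are not replicates, so these shares describe the genes and carry no test of their own.

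**Figure D1:**
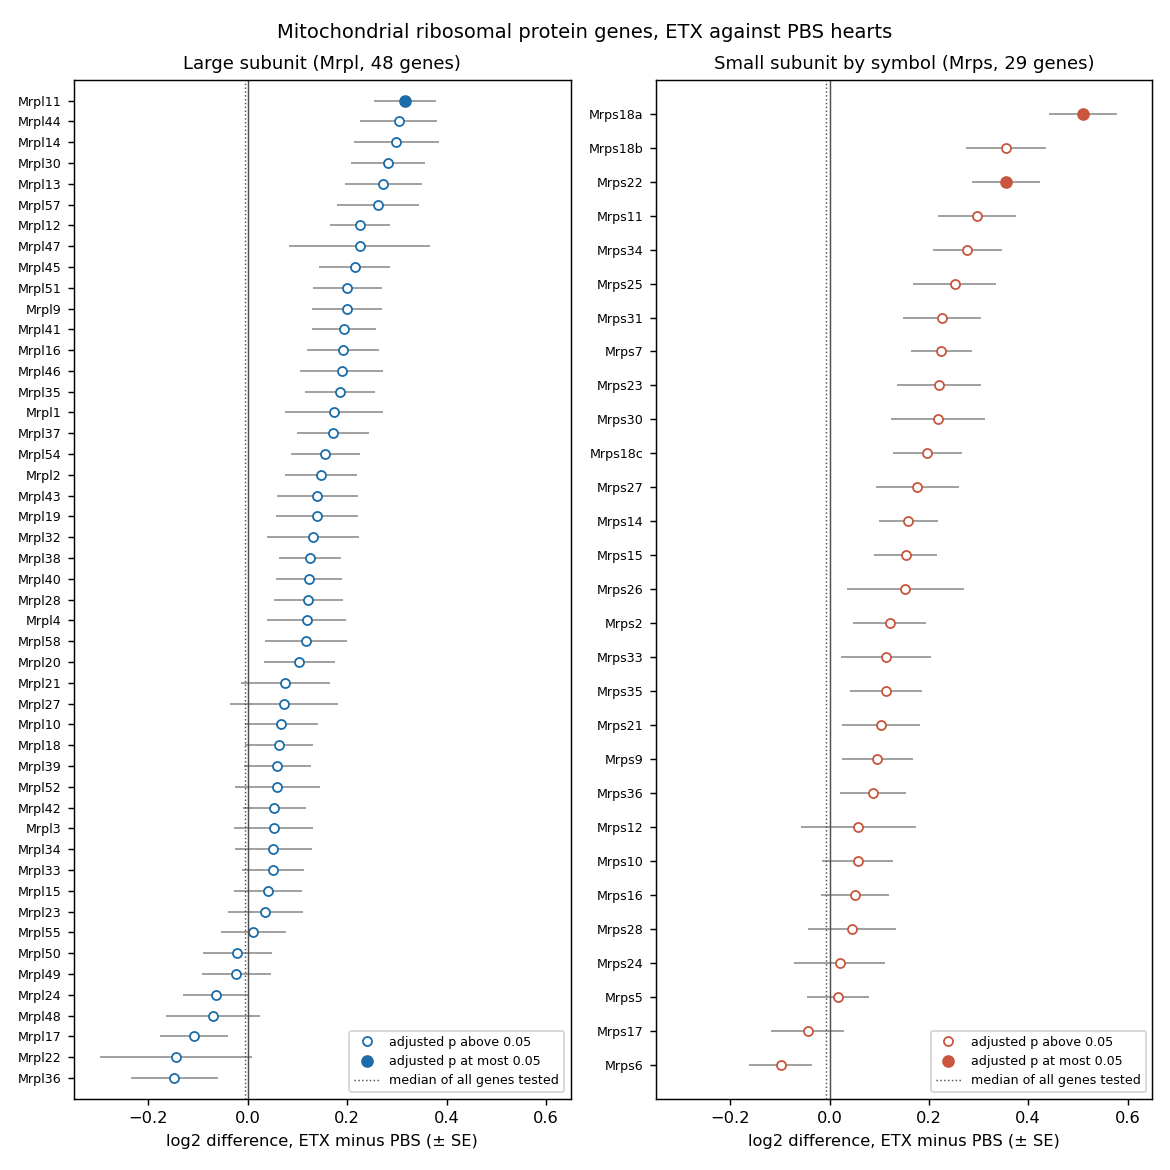
Log2 difference (ETX minus PBS) of each of the 48 Mrpl and 29 Mrps genes, ordered by size, with the standard error from limma as bars. Filled points passed an adjusted p of 0.05 (Mrpl11, Mrps18a and Mrps22). The dotted line is the median of all genes tested, and 68 of the 77 points lie above 0.

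**Figure D2:**
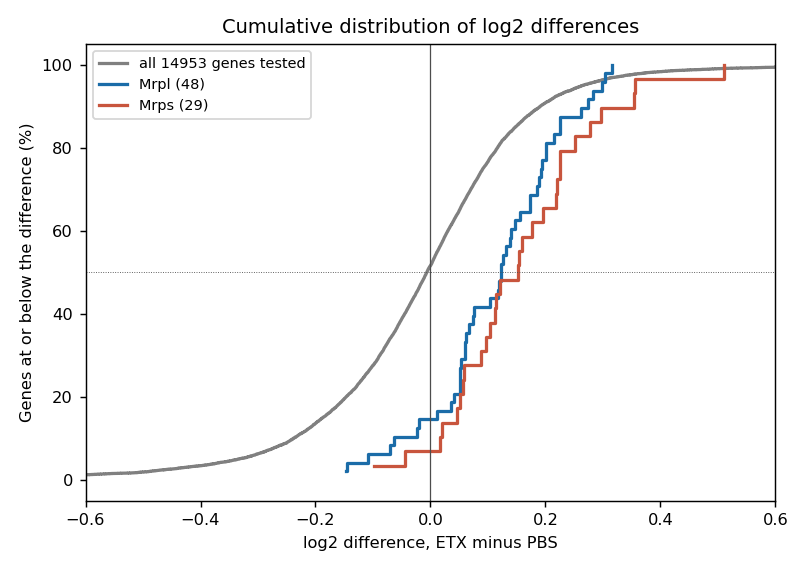
Cumulative share of genes (%) against the log2 difference for all 14953 genes tested, the Mrpl genes and the Mrps genes. Both member curves lie to the right of the curve of all genes around their medians of 0.12 and 0.15, and reach 100% at 0.32 and 0.51.

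Seen heart by heart, the groups stood apart for both subunits. For each gene the deviation from its own mean over the 6 hearts was taken, and the median over the genes was computed in each heart. For the Mrpl genes this median was -0.021, -0.096 and -0.053 in PBS replicates 3, 9 and 12, and 0.064, 0.062 and 0.071 in ETX replicates 6, 7 and 10. For the Mrps genes it was -0.076, -0.094 and -0.067 in PBS and 0.062, 0.071 and 0.095 in ETX, in the same order of hearts. With each heart left out in turn the Mrpl median ran from 0.098 to 0.15 and the Mrps median from 0.13 to 0.17. Of the 77 members, 28, 16 and 22 lay above their 6-heart mean in the PBS hearts and 56, 61 and 57 in the ETX hearts. Over all 14953 genes tested these counts were 8355, 7345 and 7441 in PBS and 7121, 6949 and 7347 in ETX.

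Transcripts of several cell types also differed between the groups, although the mean levels of the fibroblast and of the liver genes overlapped. All 9 cardiomyocyte markers were below 0 in ETX (median -0.10, 0 called). All 9 macrophage markers were below 0 (median -0.48, 5 called lower, mean level 6.76 to 6.92 in PBS and 6.38 to 6.51 in ETX). The 7 endothelial markers were below 0 as well (median -0.34, 3 called lower, mean level 9.13 to 9.19 in PBS and 8.77 to 8.93 in ETX). Of the 7 fibroblast markers 1 was above 0 (median -0.21, 1 called lower), with mean levels of 9.41 to 9.57 in PBS and 9.26 to 9.42 in ETX. All 6 markers of cycling cells were above 0 (median 0.42, Foxm1 called higher, mean level 4.86 to 4.99 in PBS and 5.04 to 5.59 in ETX), and so were the 2 tested erythroid genes, Alas2 and Slc4a1, both called higher (mean level 7.06 to 7.30 and 7.59 to 7.94). Of the 3 listed brown fat genes tested 2 were above 0 (mean level 7.61 to 7.67 in PBS and 7.75 to 8.38 in ETX). Cox7a1 (mean 11.5 in PBS and 11.2 in ETX) and Cidea (7.74 and 8.22) were well above the dim limit in every heart. The mean level thus rests mainly on Cox7a1 and Cidea, but these do not account for its highest value. That value (8.38) was in ETX replicate 6, where Cidea was the lowest of the ETX hearts (8.07, against 8.30 and 8.28) and Ucp1 the highest. The mean level does not by itself show brown fat, and its presence was not tested. Cidea was called higher, Cox7a1 was lower without overlap and did not pass (log2 difference -0.29, limma adjusted p = 0.0601), and Ucp1 was at 5.72 in ETX replicate 6 and between 3.57 and 3.77 in the other hearts. All 5 liver genes were above 0 (median 0.55, 0 called), with a mean level of 4.25 to 5.80 in PBS and 4.60 to 6.41 in ETX. This level did not follow the groups. It was high in PBS replicate 12 (5.80) and ETX replicates 6 (6.41) and 7 (5.61). It was low in PBS replicates 3 (4.25) and 9 (4.37) and ETX replicate 10 (4.60). The part of these cell types in the members' difference was not tested, and in whole hearts fewer cells of a type and less RNA per cell cannot be told apart. With both PBS hearts that hold lung transcripts left out, the medians were 0.12 for Mrpl and 0.17 for Mrps. That fit leaves PBS replicate 12 alone and assumes that it varies like the others. It is not free of other tissue, as PBS replicate 12 is the PBS heart with high liver genes (Alb at 8.16, against 4.32 and 5.01 in PBS replicates 3 and 9).

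**Figure D3:**
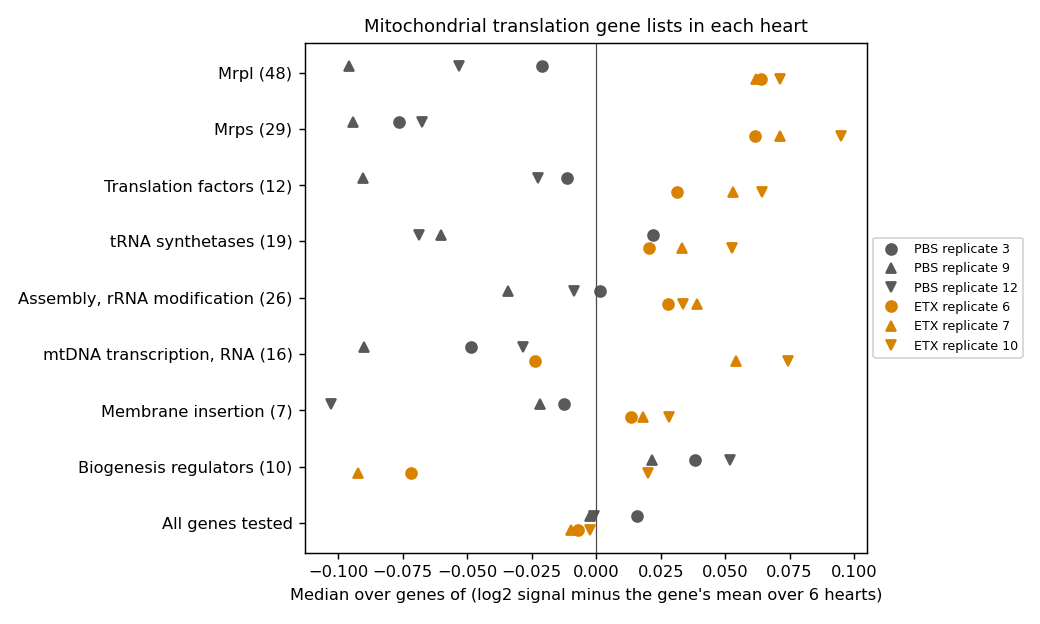
Median over genes of the log2 signal minus the gene's mean over the 6 hearts, for each heart (grey PBS, orange ETX) and gene list, with the number of genes in brackets. The 3 ETX hearts lie above the 3 PBS hearts for the Mrpl and the Mrps genes. They also do for translation factors, assembly, membrane insertion and, narrowly, mitochondrial DNA transcription, but not for tRNA synthetases. For the biogenesis regulators ETX replicates 6 and 7 lie lowest, and ETX replicate 10 (0.020) lies just under the lowest PBS heart (0.021).

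Among genes of the large subunit, Mrpl11 rose most clearly. Its protein sits at the base of the stalk, the flexible arm on which translation factors are received. It was at 7.12, 7.05 and 7.10 in PBS replicates 3, 9 and 12 and at 7.41, 7.36 and 7.44 in ETX replicates 6, 7 and 10 (7.09 ± 0.037 and 7.40 ± 0.040, SD, n = 3 each). The lowest ETX heart was thus well above the highest PBS heart, and the rise was 1.24-fold (limma adjusted p = 0.0385, log2 difference 0.32, SE 0.063). The call was lost when any of the 6 hearts was left out (limma adjusted p up to 0.112), with a log2 difference of 0.30 to 0.34 in those fits.

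The other stalk genes on the array were Mrpl12, whose product forms the arm itself, and Mrpl10, which anchors it. Mrpl12 was at 8.49, 8.51 and 8.51 in PBS and at 8.71, 8.71 and 8.76 in ETX. Its groups were tight and did not overlap (log2 difference 0.23, limma adjusted p = 0.0807). Mrpl10 was at 7.98, 7.85 and 7.93 in PBS and 8.08, 7.98 and 7.90 in ETX, so its groups overlapped (0.067, limma adjusted p = 0.642).

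Mrpl44, a protein with a ribonuclease III fold and a known cardiomyopathy gene, was at 6.45, 6.45 and 6.60 in PBS and at 6.73, 6.78 and 6.91 in ETX. All ETX hearts were higher, without passing (log2 difference 0.30, limma adjusted p = 0.0735). Mrpl3, another cardiomyopathy gene, was at 7.42, 7.39 and 7.52 in PBS and 7.39, 7.49 and 7.61 in ETX. Its lowest ETX heart matched the lowest PBS heart (0.052, limma adjusted p = 0.749).

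Mrpl30, Mrpl13 and Mrpl14 have homologues in bacteria, and Mrpl14 lies on the face of the large subunit that meets the small one. Mrpl30 was at 9.78, 9.58 and 9.63 in PBS and at 9.91, 9.93 and 9.999 in ETX. Mrpl13 was at 7.15, 7.06 and 7.16 in PBS and at 7.35, 7.52 and 7.32 in ETX. Mrpl14 was at 6.60, 6.54 and 6.33 in PBS and at 6.86, 6.76 and 6.75 in ETX. In none of these 3 did the groups overlap, and none passed (log2 differences of 0.28, 0.27 and 0.30, limma adjusted p between 0.0811 and 0.0986).

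Mrpl45, Mrpl57, Mrpl41 and Mrpl51 belong to the proteins that mitochondria have added to the bacterial plan, and Mrpl45 tethers the ribosome to the inner membrane at the exit of the nascent chain. Mrpl45 was at 7.71, 7.90 and 7.81 in PBS and at 7.99, 8.04 and 8.03 in ETX. Mrpl57 was at 6.18, 6.00 and 6.22 in PBS and at 6.35, 6.34 and 6.49 in ETX. The values of Mrpl41 were 8.26, 8.35 and 8.32 in PBS and 8.55, 8.48 and 8.46 in ETX. For all 3 the ETX hearts were the higher ones without overlap. Mrpl51 was at 8.95, 8.99 and 9.09 in PBS and at 9.14, 9.22 and 9.27 in ETX, again without overlap. The log2 differences of these 4 genes lay between 0.19 and 0.26 and did not pass (limma adjusted p between 0.123 and 0.149).

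Among the Mrps genes, Mrps18a rose the most. By its symbol it counts with the small subunit, but it is one of 3 mammalian homologues of bacterial S18, and its protein is known to sit in the large subunit. It was at 7.35, 7.29 and 7.31 in PBS and at 7.90, 7.74 and 7.85 in ETX (7.32 ± 0.029 and 7.83 ± 0.083, SD, n = 3 each). No PBS heart came near the ETX range, and the rise was 1.42-fold (limma adjusted p = 0.0129, log2 difference 0.51, SE 0.069). It passed in all 6 fits with 1 heart left out (limma adjusted p up to 0.0484), but not when each heart's lung-marker score was a covariate (limma adjusted p = 0.0841, log2 difference 0.50). The other S18 homologues, Mrps18b and Mrps18c, are in the small subunit. Mrps18b was at 6.68, 6.71 and 6.57 in PBS and 6.89, 7.03 and 7.12 in ETX (log2 difference 0.36, limma adjusted p = 0.0549). Mrps18c was at 7.56, 7.64 and 7.65 in PBS and 7.72, 7.85 and 7.86 in ETX (0.20, limma adjusted p = 0.152). All 3 homologues were without overlap, and whether their differences differ from each other was not tested.

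Mrps22, a mitochondria-only protein of the small subunit and a cardiomyopathy gene, rose 1.28-fold. It was at 6.98, 6.97 and 7.05 in PBS and at 7.27, 7.41 and 7.39 in ETX (6.999 ± 0.042 and 7.35 ± 0.075, SD, n = 3 each; log2 difference 0.35, SE 0.068, limma adjusted p = 0.0362). The ETX hearts all lay above PBS. The call was lost when any of the 6 hearts was left out (limma adjusted p up to 0.133). Mrps14, a head protein of the small subunit also linked to cardiomyopathy, was at 6.47, 6.46 and 6.44 in PBS and 6.61, 6.61 and 6.63 in ETX. The hearts of each group were nearly identical, and the small difference of 0.16 did not pass (limma adjusted p = 0.171). Of the 4 cardiomyopathy-linked genes, all 4 were thus above 0, as were 88.3% of all members. Of these 4 genes 1 was called higher, against 3.90% of the members and 1.14% of all genes tested.

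Because the members lay together, their promoters were read from RefSeq (GRCm38.p6), in windows from 250 bases before to 50 after each start. Windows were found for 68 of the 77 members and for 11802 genes tested. Both strands were searched for the NRF1 consensus palindrome, an ETS motif of the kind bound by GABPA (CCGGAAGT) and a YY1 motif (AAGATGGCG). The ETS motif was found in 12 of 68 members (17.6%, against 7.50% of the genes tested), the YY1 motif in 8 (11.8%, against 2.91%) and the NRF1 motif in 3 (4.41%, against 1.98%). Of all 32851 windows, 3.89%, 1.40% and 0.971% held them. These are matches of letters and not shown to be sites. The medians of members with and without a motif differed by subunit. For the ETS motif they were 0.061 with it (8 genes) and 0.13 without it among Mrpl genes, and 0.19 with it (4 genes) and 0.12 without it among Mrps genes. For the YY1 motif they were 0.11 with it (4 genes) and 0.12 without it among Mrpl genes, and 0.24 with it (4 genes) and 0.14 without it among Mrps genes. The 3 members with the NRF1 motif were all Mrpl genes, with a median of 0.13 against 0.12 for the other Mrpl genes with a window. These differences between medians rest on few genes and were not tested.

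The 100 bases before the start are shown for the 3 members that rose and for Mrpl9, whose NRF1 match is the nearest to its start among the 3 members that hold one. They read 5′ to 3′ on the gene's strand, with matched motifs in capitals.
Mrps18a (chr17:46110904-46111003, plus strand): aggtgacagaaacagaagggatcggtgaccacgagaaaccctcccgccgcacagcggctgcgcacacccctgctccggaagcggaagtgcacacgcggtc
Mrps22 (chr9:98601680-98601779, minus strand): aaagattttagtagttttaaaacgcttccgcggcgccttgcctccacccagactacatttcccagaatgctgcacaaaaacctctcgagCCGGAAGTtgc
Mrpl11 (chr19:4962206-4962305, plus strand): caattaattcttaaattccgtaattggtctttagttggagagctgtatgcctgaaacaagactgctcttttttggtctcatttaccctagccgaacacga
Mrpl9 (chr3:94443236-94443335, plus strand): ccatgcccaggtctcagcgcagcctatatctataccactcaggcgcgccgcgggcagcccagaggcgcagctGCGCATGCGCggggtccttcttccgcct

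In Mrps22 the ETS match begins 11 bases before the start. Mrps18a holds no match in the bases shown, and its YY1 match begins at position 12 after the start. Mrpl11 holds none of the 3 motifs in its window. In Mrpl9 the NRF1 match begins 28 bases before the start. Mrpl9 itself was 0.20 higher in ETX without passing (limma adjusted p = 0.151).

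Mrps34, a mitochondria-only protein, was at 6.996, 6.93 and 6.89 in PBS and at 7.19, 7.30 and 7.15 in ETX. Mrps11, whose bacterial homologue lies on the platform of the small subunit, was at 5.18, 5.33 and 5.42 in PBS and at 5.63, 5.64 and 5.56 in ETX. Mrps7, whose homologue organises the head, was at 7.65, 7.67 and 7.67 in PBS and at 7.91, 7.93 and 7.84 in ETX. These 3 were without overlap and did not pass (log2 differences of 0.28, 0.30 and 0.22, limma adjusted p between 0.0697 and 0.0875). Mrps25, another mitochondria-only protein, was at 6.28, 6.01 and 6.13 in PBS and at 6.35, 6.45 and 6.37 in ETX. Mrps31 was at 7.69, 7.55 and 7.57 in PBS and at 7.79, 7.76 and 7.94 in ETX. In both, the gap between the highest PBS heart and the lowest ETX heart was narrow (log2 differences of 0.25 and 0.23, limma adjusted p = 0.133 and 0.146).

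**Figure D4:**
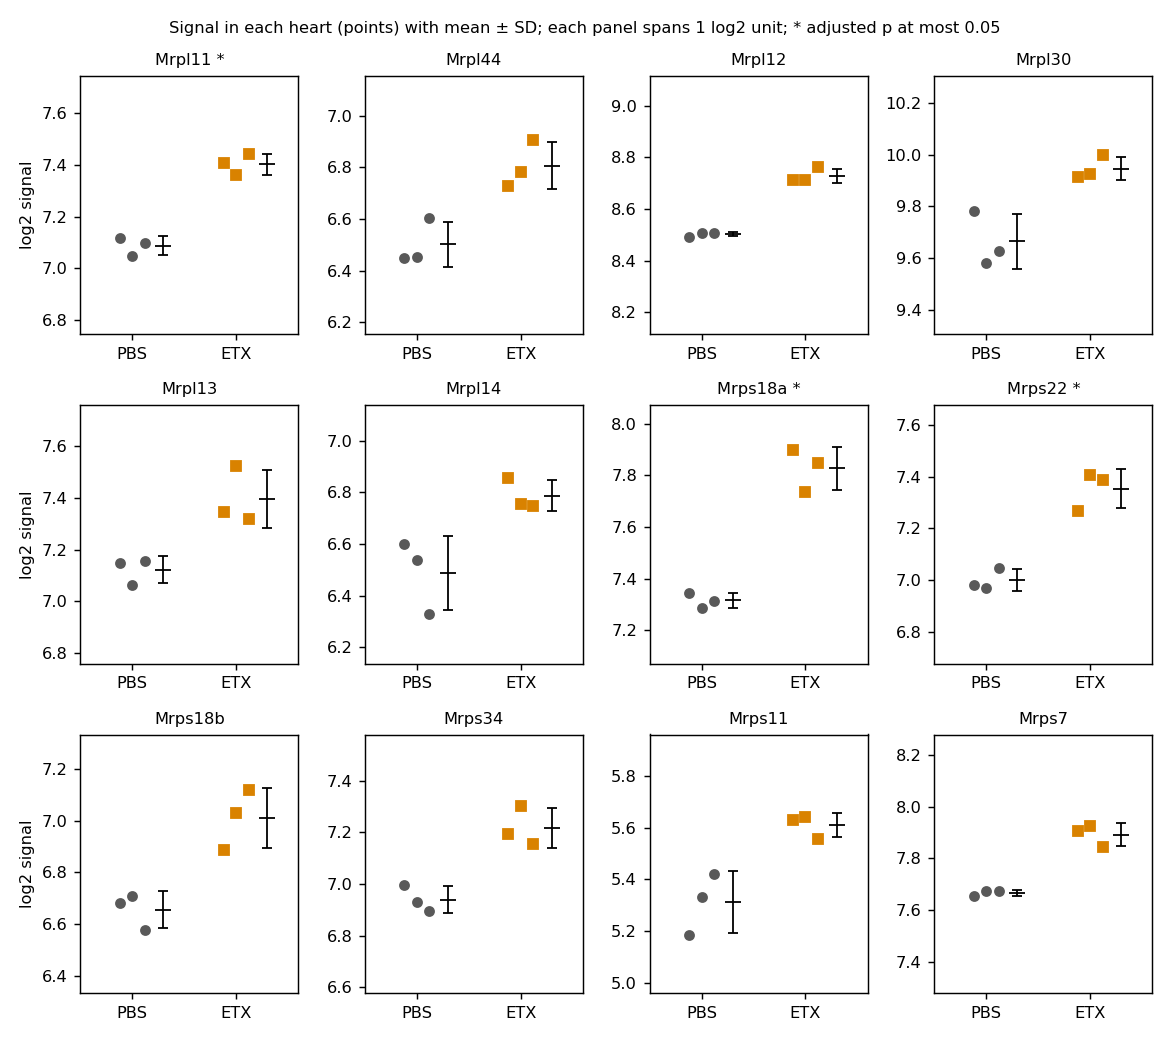
Log2 signal in each heart (points: 3 PBS, 3 ETX) with the mean ± SD beside them, for the 6 Mrpl and 6 Mrps genes with the smallest p. Each panel spans 1 log2 unit, and in all 12 panels the 3 ETX hearts lie above the 3 PBS hearts. Asterisks mark the genes with an adjusted p of at most 0.05.

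A further pair of Mrps symbols does not stand for a small-subunit protein. Mrps30, known to sit in the large subunit, was at 6.24, 6.25 and 6.41 in PBS and 6.37, 6.50 and 6.68 in ETX, with overlap (log2 difference 0.22, limma adjusted p = 0.225). Mrps36, now known as a component of the oxoglutarate dehydrogenase complex, was at 6.11, 6.19 and 6.25 in PBS and 6.24, 6.25 and 6.32 in ETX (0.088, limma adjusted p = 0.497). With Mrps18a and Mrps30 counted in the large subunit and Mrps36 left out, the medians were 0.12 for the large and 0.14 for the small subunit.

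The 9 members below 0 were Mrpl17, Mrpl22, Mrpl24, Mrpl36, Mrpl48, Mrpl49, Mrpl50, Mrps6 and Mrps17, and none of them passed. The furthest were Mrpl36 (log2 difference -0.15, limma adjusted p = 0.372) and Mrpl22 (-0.15, 0.632), the latter at 5.35 in PBS replicate 3 and 5.23 in ETX replicate 6 and between 4.77 and 4.95 in the other hearts. Mrpl17 (-0.11) and Mrps6 (-0.099) were the only members with all ETX hearts below PBS. Under other scalings of the arrays a few members near 0 changed sign. Centring each array on its median turned Mrpl55, Mrps5 and Mrps24 below 0 and left 65 of 77 above. A further quantile normalization turned Mrpl49, Mrpl50 and Mrps17 above 0, which gave 71 of 77. Alternatives other than scaling went lower, to 63 members above 0 without PBS replicate 12 and 61 with the lung-marker score as a covariate.

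Members were also split by the number in the symbol alone. This is only a rough stand-in for having a bacterial homologue, which was not checked gene by gene. Of the Mrpl genes, the 28 with numbers up to 36 had a median of 0.11 and the 20 with higher numbers 0.13. Of the Mrps genes, the 16 with numbers up to 21 had a median of 0.11. The 13 with higher numbers, Mrps30 and Mrps36 among them, had a median of 0.18, with all 13 above 0. Differences between these classes were not tested.

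For 8 members the array holds a second transcript cluster. For Mrpl23, Mrpl51, Mrps33, Mrps36, Mrpl41, Mrpl47 and Mrps5 both clusters were above 0, and for Mrpl27 the brightest was at 0.074 and the other at -0.026. The 2 clusters of a gene often differed in size. Mrpl41 showed 0.19 on the brightest and 0.0017 on the other cluster, Mrpl47 showed 0.22 and 0.0020, and Mrps5 showed 0.017 on the brightest and 0.18 on the other.

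Mitoribosomal proteins with other symbols were followed as a separate list. Of 5 such genes 4 were measured, all 4 above 0 with a median of 0.13, and 0 were called. Chchd1, a small-subunit protein, was at 7.05, 7.03 and 6.97 in PBS and 7.30, 7.27 and 7.25 in ETX, without overlap (log2 difference 0.25, limma adjusted p = 0.0655). Dap3, a GTP-binding small-subunit protein first described in cell death, differed by 0.15 (limma adjusted p = 0.32), Gadd45gip1 of the large subunit by 0.10 (0.637), and the pentatricopeptide repeat protein Ptcd3 by 0.078 (0.657), with overlapping groups in all 3. The median of the 4 was 0.063 without PBS replicate 9 and 0.19 without ETX replicate 10.

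The factors that work on the mitochondrial ribosome gave 1 call. Of 12 tested translation factors 10 were above 0 (median 0.11), and Gfm2, which splits the subunits apart for recycling, rose 1.22-fold. Gfm2 was at 6.94, 6.92 and 6.88 in PBS and at 7.22, 7.15 and 7.24 in ETX, without overlap (log2 difference 0.29, limma adjusted p = 0.0499). This call stood at the threshold and was lost when any of the 6 hearts was left out. The back-translocase Guf1 was at 6.75, 6.62 and 6.94 in PBS and 7.12, 7.17 and 7.10 in ETX (0.36, limma adjusted p = 0.0696). Mrrf, the recycling factor that acts together with Gfm2, went the other way without passing, at 8.72, 8.72 and 8.62 in PBS and 8.49, 8.41 and 8.51 in ETX (-0.22, limma adjusted p = 0.115).

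Of 19 tested mitochondrial tRNA synthetases and amidotransferase subunits, which charge the tRNAs, 15 were above 0 (median 0.064, 0 called). Those with the smallest p were Ears2 (log2 difference 0.18, limma adjusted p = 0.14), Aars2 (0.18, 0.164) and Sars2 (0.31, 0.212). Of 26 tested assembly and rRNA modification factors 17 were above 0 (median 0.060, 0 called). They were led by the RNA-binding protein Fastkd2 (0.29, limma adjusted p = 0.0549), the rRNA methyltransferase Mettl15 (0.33, 0.0667) and Nsun4 (0.25, 0.112), which methylates the small-subunit rRNA and takes part in joining the subunits. With PBS replicate 9 left out the assembly median was 0.035, the lowest of the 6 such fits. Without PBS replicate 3 the synthetase median was 0.11.

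Upstream of translation, 11 of 16 genes of mitochondrial DNA transcription and RNA processing were above 0 (median 0.11, 0 called). Slirp, which stabilises mitochondrial mRNAs with Lrpprc, was highest (0.36, limma adjusted p = 0.0647), with its partner Lrpprc at -0.013 (0.948). The poly(A) polymerase Mtpap (-0.21, 0.111) and the elongation factor Tefm (0.23, 0.152) had the next smallest p. Of 7 genes of membrane insertion, Mrpl45 among them, 5 were above 0 (median 0.095, 0 called), with Letm1 at 0.23 (limma adjusted p = 0.0950), Timm21 at -0.25 (0.114) and Oxa1l, the insertase itself, at -0.0026 (0.985). Leaving out ETX replicate 10 brought the median of this list to 0.019, and leaving out ETX replicate 6 brought it to 0.16. None of the 15 transcripts of mitochondrial DNA was matched by symbol, and they are not analysed here.

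Of 10 genes listed as regulators of mitochondrial biogenesis 3 were above 0 (median -0.13, 0 called). The list holds mainly transcription factors and coactivators of nuclear genes, and also Tfam, which acts on mitochondrial DNA and is counted in the transcription list as well. The 3 above 0 were Esrra, Tfam (0.13, limma adjusted p = 0.633) and the coactivator Ppargc1b (0.044, 0.761). Esrra, an orphan receptor acting with the PGC-1 coactivators, differed by 0.17 (limma adjusted p = 0.204), Gabpb1 by -0.24 (0.212) and the coactivator Pprc1 by -0.14 (0.239). Ppargc1a differed by -0.23 (0.306), Gabpa by -0.12 (0.393), Yy1 by -0.13 (0.294), Myc by -0.17 (0.592) and Nrf1 by -0.091 (0.482), where Nrf1 is nuclear respiratory factor 1.

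Some members start near a gene read in the opposite direction. By the RefSeq starts, 26 of 68 members had such a neighbour within 1000 bases, and the share over all genes was not computed. Mrpl46 and Mrps11, a large-subunit and a small-subunit gene whose starts lie 42 bases apart, differed by 0.19 and 0.30. Among the 21 tested neighbours that are no members, 13 were above 0, the median was 0.018 and 1 was called, Tmem63b beside Mrpl14 (log2 difference 0.52, limma adjusted p = 0.0140). Neighbours can also go the other way, as Ppp1r10 did, whose start lies 756 bases from that of Mrps18b (-0.30, limma adjusted p = 0.0570, without passing).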

How the data were processed

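The authors deposited log2 values made with Affymetrix Expression Console and RMA, per the submitters' processing notes. RMA gives the arrays closely similar distributions and understates differences between dim transcripts. Versions, annotation and build were not given in the sources used here. Transcript clusters (35556) were named through a platform annotation: 21789 had 1 gene symbol, 1621 several and 12146 none. Genes with a mean under the lower quartile (3.45) were not tested, and 14953 remained. The groups were then tested with limma 3.58.1 (two-sided, Benjamini-Hochberg over all genes kept, threshold 0.05) in R 4.3.3. Data were simulated for this comparison over 14953 genes, with independent normal errors of the variance that limma gave each gene. Of 100 genes raised 1.5-fold 93% were recovered, and of 100 genes lowered 2-fold 98%. There, 11 other genes were called. Neither transcripts of other tissue nor errors shared between genes were simulated, so recovery in these hearts may differ. Changes as small as the members' medians (1.09-fold and 1.11-fold) were not simulated, so their recovery is not known. Named are the called members, the 10 with the smallest p in each subunit, fixed groups of members and, in related lists, called genes and the 3 with the smallest p. Members below 0, Mrpl9, and the neighbours and regulators beyond these were named after their values were seen. The members and lists were chosen with earlier results of these data known. Alternatives were other filters, scalings, cluster choices and variance models, hearts left out, and marker scores as covariates. Arrays correlated at 0.989 to 0.994 within groups and 0.985 to 0.989 between them. Figures were drawn with matplotlib 3.10.9.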

Additional observations from a re-analysis of the deposited data

How the results depend on the processing

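Both medians stayed above 0 under all 19 alternatives. In some of these the sign of a gene's difference could not change. The other filters, the eBayes trend fits and the unmoderated linear model leave each gene's difference as it is and bear only on the calls. Centring arrays gave 0.093 for Mrpl and 0.12 for Mrps, with a median of -0.036 over all genes tested (-0.0063 as deposited). A further quantile normalization gave 0.16 and 0.17, with 0.00062 over all genes tested. With the 3 hearts with high atrial transcripts left out, the Mrpl and Mrps medians were 0.15 and 0.18. Counts of calls moved most. Over all genes they were 909 with a filter at the median, 870 with eBayes trend, 957 with trend and robust, 69 with the lung score and 133 with the atrial score as covariate, 19 without both PBS hearts with lung transcripts, and 2 after dropping the 3 atrial-rich hearts. In the last pair 1 heart of a group stood alone and was assumed to vary like the others. An unmoderated linear model called 0 (2738 at an unadjusted p under 0.05). Without 1 heart in turn 94 to 241 genes were called, with 0 Mrpl and 1 Mrps gene in each fit, and the Mrps median ran from 0.13 to 0.17. Mrpl and Mrps genes called higher were 4 and 6 with the median filter, 3 and 5 with trend, 4 and 5 with trend and robust, 2 and 4 after quantile normalization, 0 and 1 with centred arrays or the atrial score, and 0 and 0 with the unmoderated model, the lung score or either set of hearts left out. With no filter 0 Mrpl genes were called, and with symbols sorted by structure 2 and 1. The counts over all genes above hold both directions, and the filter at the median keeps fewer genes (76 members). The counts of members called higher therefore have no matching share over all genes beside them. Of the calls over all genes 31.9% were higher in ETX as deposited, 21.4% with centred arrays and 41.7% after quantile normalization. Over the 19 alternatives Mrps18a passed in 15 (limma adjusted p from 0.00242 to 0.495), Mrps22 in 7 (0.0145 to 0.583), Mrpl11 in 6 (0.0167 to 0.583) and Gfm2 in 5 (0.0245 to 0.585), and none changed direction. No paired analysis was possible because PBS replicates 3, 9 and 12 and ETX replicates 6, 7 and 10 share no number. No detection calls come with the values, and differences of dim transcripts are compressed to an unknown degree.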

Other observations

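Mrpl53, a mitochondria-only gene of the large subunit, lies only on a cluster that the annotation assigns to Ccdc142 as well, and so is not among the 77 members. That cluster was at 5.81, 5.80 and 5.62 in PBS replicates 3, 9 and 12 and at 5.74, 5.71 and 5.84 in ETX replicates 6, 7 and 10, and its groups overlapped (log2 difference 0.021).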
